A study of Homo sapiens with 16 samples.

Results

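The hypoxia-induced genes were a set of 10 genes, HIF1A, EGLN1, EGLN3, VEGFA, ADM, NDRG1, P4HA1, CA9, ANKRD37 and BNIP3, made up of HIF1A itself and targets of hypoxia-inducible factor (HIF) that lie outside glycolysis. They were matched by symbol to the Ensembl identifiers of the count tables, all 10 were found among 54127 identifiers, and each had at least 1 count in the series. RNA was sequenced from adherent cultures of HT55 and of SW948, human lines established from colorectal tumours and grown in serum, after 6 days with 5 µM itraconazole, a triazole antifungal, or with DMSO, its solvent. Each of the 4 groups (HT55 DMSO, HT55 itraconazole, SW948 DMSO, SW948 itraconazole) held 4 libraries, which the methods of the study describe as biological replicates. The cultures of the study were kept at oxygen below that of room air in every group, and no group was placed at another oxygen level. Each line is a single tumour line, so the difference between HT55 and SW948 is a difference between 2 lines.

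HIF is a transcription factor of an oxygen-sensitive alpha subunit, HIF1A or its relative EPAS1, and a stable partner, ARNT. When oxygen is plentiful, prolyl hydroxylases of the EGLN family mark the alpha subunit, VHL binds it and it is degraded; when oxygen is low it persists and switches on genes for blood vessel growth, pH control, matrix assembly, mitophagy and glycolysis. HIF1A is thus controlled mainly as a protein, which RNA counts do not measure.

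Of the members, 5 (HIF1A, VEGFA, ADM, NDRG1 and P4HA1) were higher with itraconazole in both lines, by 1.47- to 4.32-fold in HT55 and by 1.75- to 5.91-fold in SW948. Of all genes tested, 26.9% were called higher in HT55 and 39.3% in SW948, and the share called higher in both lines was not computed. NDRG1 had the highest fold of the members tested in HT55. In SW948 ADM and NDRG1 were the highest, with log2 fold changes of 2.56 and 2.45, and their order turned without itraconazole replicate 3 (2.28 and 2.37). The HIF prolyl hydroxylases among the members went another way in SW948. EGLN1 was higher in treated HT55, as those 5 genes were, and slightly lower in treated SW948 (log2 fold change -0.23). EGLN3, of which HT55 held only a few counts per library, fell to 0.336 of its DMSO level in SW948. CA9, ANKRD37 and BNIP3 stood at or below 2.24 CPM (counts per 1000000 gene counts) in every library, and BNIP3 had no count in the 8 SW948 libraries.

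The promoters of the members were searched for the cores ACGTG and GCGTG, which HIF is known to bind, on both strands in the 250 bases before the annotated start. The part of HIF in the changes of the members was not tested. Of the 10 members, 8 matched the RefSeq promoter table (GRCh38.p14), with 9 entries since HIF1A had 2 starts. VEGFA and NDRG1 had no entry. ADM and P4HA1 rose in both lines, EGLN1 changed in opposite ways, EGLN3 fell in SW948 and BNIP3 was at 0 there. Their windows were chr11:10304823-10305072 (plus strand), chr10:73096867-73097116 (minus), chr1:231422288-231422537 (minus), chr14:33951075-33951324 (minus) and chr10:131981924-131982173 (minus), and each is printed 5′ to 3′ on the strand of the gene with the motif letters of either strand in capitals.
ADM: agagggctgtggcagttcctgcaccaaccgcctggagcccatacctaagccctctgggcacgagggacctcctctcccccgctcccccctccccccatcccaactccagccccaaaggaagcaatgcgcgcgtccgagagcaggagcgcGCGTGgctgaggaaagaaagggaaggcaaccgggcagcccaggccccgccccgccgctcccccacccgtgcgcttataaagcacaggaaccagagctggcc
P4HA1: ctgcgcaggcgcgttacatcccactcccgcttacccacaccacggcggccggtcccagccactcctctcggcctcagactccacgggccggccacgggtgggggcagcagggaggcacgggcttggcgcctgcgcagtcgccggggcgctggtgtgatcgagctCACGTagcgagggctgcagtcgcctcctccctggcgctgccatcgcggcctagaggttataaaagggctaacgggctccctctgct
EGLN1: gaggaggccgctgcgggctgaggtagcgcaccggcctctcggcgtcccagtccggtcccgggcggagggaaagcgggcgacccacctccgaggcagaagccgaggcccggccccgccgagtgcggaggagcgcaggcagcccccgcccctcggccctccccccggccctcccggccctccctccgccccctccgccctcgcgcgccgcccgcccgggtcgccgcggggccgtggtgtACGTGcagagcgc
EGLN3: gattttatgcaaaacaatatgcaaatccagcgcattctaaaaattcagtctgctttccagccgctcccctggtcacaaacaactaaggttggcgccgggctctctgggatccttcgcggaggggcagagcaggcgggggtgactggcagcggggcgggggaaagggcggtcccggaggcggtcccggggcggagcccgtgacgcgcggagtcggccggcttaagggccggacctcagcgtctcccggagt
BNIP3: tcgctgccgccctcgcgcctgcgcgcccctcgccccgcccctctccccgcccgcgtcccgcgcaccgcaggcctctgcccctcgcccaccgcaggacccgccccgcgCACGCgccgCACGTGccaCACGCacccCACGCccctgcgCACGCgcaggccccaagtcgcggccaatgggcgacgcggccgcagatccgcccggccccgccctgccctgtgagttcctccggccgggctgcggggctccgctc
ADM held 1 GCGTG, 101 to 97 bases before its start. P4HA1 held 1 ACGTG on the minus strand of the window, 86 to 82 bases before its start, and EGLN1 held 1 at 13 to 9 bases. BNIP3 held 6 matches between 143 and 100 bases before its start, 2 of ACGTG that overlap as the palindrome CACGTG and 4 of GCGTG, and had 41 CpG dinucleotides in the window against a median of 11 over all promoters. EGLN3 held no match of either motif. Among the members not printed, CA9 held 1 ACGTG at 18 to 14 bases, ANKRD37 held 3 ACGTG matches between 162 and 139 bases, and HIF1A held 1 GCGTG at 204 to 200 bases before its first start and none before the second. ACGTG was present in 18.5% of the 35116 promoters of the table, GCGTG in 32.2% and either motif in 43.2%. Of the 8 members with an entry, 7 held either motif, EGLN3 being the other. The members other than HIF1A were chosen as HIF targets, so this share follows in part from the choice. The shares count promoter entries, while the members are counted as genes, HIF1A by its first start. Both motifs hold a CpG. Windows other than that of BNIP3 held 36 CpG in EGLN1, 29 in the first of HIF1A, 26 in ANKRD37 and 25 in P4HA1. EGLN3 held 23, ADM 16, CA9 5 and the second window of HIF1A 3. These are descriptions of the windows and were not tested.

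Gene counts per library ran from 8269406 to 11110814. Levels are given as CPM after scaling by TMM (the trimmed mean of M-values, which sets the middle of the genes equal between libraries). TMM factors were 1.01 to 1.03 in HT55 DMSO, 0.877 to 0.966 in HT55 itraconazole, 1.15 to 1.17 in SW948 DMSO and 0.882 to 0.975 in SW948 itraconazole. With plain totals in place of TMM the median gene moved by -0.15 log2 units in HT55 and -0.34 in SW948, and the split of called genes changed from 3265 higher and 3299 lower to 2280 and 4709 in HT55, and from 4918 and 5088 to 3147 and 6826 in SW948. All 10 markers of colon epithelium were at a mean of 1 CPM or more in every group, with summed levels of 9967 to 10327 CPM in HT55 DMSO, 11740 to 14494 in HT55 itraconazole, 6170 to 6504 in SW948 DMSO and 8944 to 11737 in SW948 itraconazole. These markers did not move as one: in HT55 5 were called higher and 1, KRT19, lower, and in SW948 6 were called higher and 4 lower (CDX2 -0.87, CDX1 -0.72, VIL1 -0.62 and CDH1 -0.22 on the log2 scale), with CDH1, CDX2 and KRT19 called in opposite directions in the 2 lines. Markers of other cell types were low apart from CD68, and some changed with treatment. Immune markers summed to 28.1 to 32.7 CPM in HT55 DMSO, 21.3 to 60.8 in HT55 itraconazole, 16.04 to 24.1 in SW948 DMSO and 107 to 112 in SW948 itraconazole. CD68, the 1 immune marker of 7 that passed the filter, rose in SW948 from 20.7 to 109.8 CPM (log2 fold change 2.40, SE 0.10, edgeR adjusted p = 1.21e-10), and CD3E and CD3D were at 0 in all groups. PTPRC was at 0 in every group but HT55 DMSO, where it averaged 0.0258 CPM. Fibroblast markers summed to 1.42 to 2.11, 3.34 to 3.92, 2.58 to 4.73 and 9.92 to 12.02 CPM in the same order of groups, where COL1A1 rose in SW948 (1.67 ± 0.18, SE, edgeR adjusted p = 7.27e-07), PDGFRB rose in HT55 (1.24 ± 0.25, edgeR adjusted p = 0.00221) and COL3A1 was at 0 throughout. Endothelial markers, of which 5 of 6 listed were matched to a row of counts and PECAM1 was not, summed to at most 0.820 CPM. KDR and CLDN5 were at 0 throughout. The part of these markers in the changes of the members was not tested. In bulk RNA a lower level per cell and fewer expressing cells cannot be told apart.

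The first question was how each gene responded to itraconazole in each line. A gene was called changed at an adjusted p under 0.05 in the quasi-likelihood test of edgeR over all genes tested, and 54.1% of 12133 genes in HT55 and 80.0% of 12505 in SW948 were called. In HT55, 7 members passed the filter on low counts, 6 were called higher and 0 lower, against 26.9% and 27.2% of all genes tested. All 4 treated libraries lay above all 4 controls for 5 members, beside 24.4% of genes above and 25.1% below. In SW948, 8 passed, 5 were called higher and 2 lower, against 39.3% and 40.7%. The treated libraries lay above the controls for 6 members and below for 2, beside 36.1% and 38.2% of genes. The median log2 fold change over the members tested was 0.58 in HT55 and 0.82 in SW948, beside -0.03 and -0.01 over all genes tested.

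**Figure D1:**
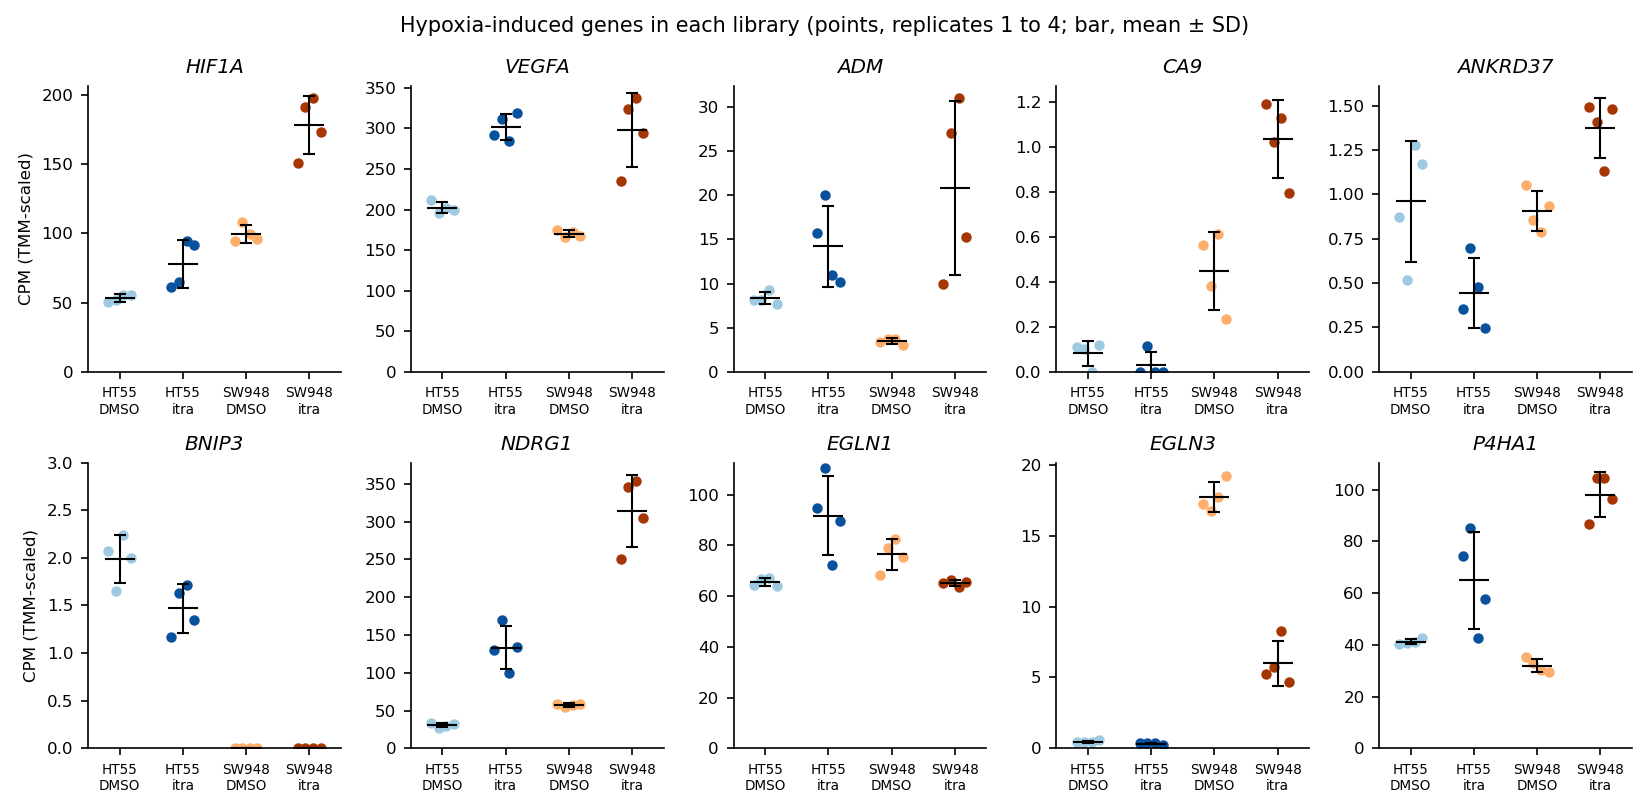
Level of each of the 10 genes in every library, in CPM on a linear axis from 0, with 4 libraries per group as points and the mean ± SD as bars. HIF1A, VEGFA, ADM and NDRG1 lie above their DMSO libraries in all 4 treated libraries of both lines, while EGLN1 and EGLN3 lie below them in SW948 and BNIP3 is at 0 in SW948.

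HIF1A (ENSG00000100644, GRCh37 chr14:62162231-62214977, plus strand) encodes the oxygen-regulated alpha subunit. In HT55 it stood at 50.1, 51.6, 55.7 and 55.2 CPM with DMSO and at 61.6, 64.8, 94.3 and 91.4 CPM with itraconazole. The treated libraries fell into a lower and a higher pair, and the lower pair was still above every DMSO library. In SW948 it stood at 94.2, 109, 99.5 and 95.9 CPM with DMSO and at 151, 191, 198 and 173 CPM with itraconazole, again with no overlap. The log2 fold change was 0.55 ± 0.14 (SE, n = 4 per group, edgeR adjusted p = 0.00606) in HT55 and 0.84 ± 0.084 (edgeR adjusted p = 3.97e-07) in SW948. On plain totals it was 0.41 in HT55 (edgeR adjusted p = 0.0427, close to the threshold) and 0.49 in SW948, both still called. Exons of HIF1A share 11.3% of their bases with noncoding genes on either strand, among them HIF1A-AS1 and HIF1A-AS3, and the strandedness of the counting is not given in the sources used here.

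EGLN1 and EGLN3 encode prolyl hydroxylases that mark HIF alpha subunits for VHL, and both are known to be induced by HIF in turn. EGLN1 (ENSG00000135766, chr1:231499497-231558033, minus strand) stood in HT55 at 64.4, 66.6, 67.0 and 63.9 CPM with DMSO and at 94.8, 110.3, 72.3 and 89.4 CPM with itraconazole. All 4 treated HT55 libraries were above the DMSO libraries, with means of 65.5 ± 1.54 (DMSO) and 91.7 ± 15.7 CPM (itraconazole; SD, n = 4). In SW948 it stood at 68.5, 79.0, 82.6 and 75.5 CPM with DMSO and at 65.2, 66.1, 63.4 and 65.7 CPM with itraconazole. All 4 treated SW948 libraries were below the DMSO libraries, of which the first was the lowest. The log2 fold change was 0.48 ± 0.11 (SE, edgeR adjusted p = 0.00382) in HT55 and -0.23 ± 0.070 (edgeR adjusted p = 0.00747) in SW948, where it was -0.57 on plain totals. An overlapping gene on the same strand covers 55.8% of the exon bases of EGLN1 in the annotation used here and has no row in the count tables used here.

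EGLN3 (ENSG00000129521, chr14:34393433-34931980, minus strand) stood in SW948 at 17.2, 16.8, 17.7 and 19.2 CPM with DMSO and at 5.27, 5.76, 8.28 and 4.67 CPM with itraconazole. Every treated library was far below every DMSO library. The log2 fold change was -1.58 ± 0.15 (SE, n = 4 per group, edgeR adjusted p = 2.45e-07). In HT55 EGLN3 was below the filter, with 4, 4, 4 and 5 counts in the DMSO libraries and 3, 3, 4 and 2 in the treated ones. As CPM the 4 treated HT55 libraries were all below the DMSO libraries, at 0.332 ± 0.0601 against 0.466 ± 0.0811 CPM (SD, n = 4; p = 0.0286 by a two-sided exact permutation test, the smallest that 4 against 4 libraries can give). With so few counts, edgeR without the filter gave an adjusted p of 0.56 for the same comparison.

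VEGFA (ENSG00000112715, chr6:43737921-43754224, plus strand) encodes the main growth factor for blood vessel endothelium. In HT55 it stood at 211, 195, 202 and 199.6 CPM with DMSO and at 292, 311, 284 and 319 CPM with itraconazole. In SW948 it stood at 175, 166, 172 and 168 CPM with DMSO and at 236, 324, 338 and 294 CPM with itraconazole. The groups did not overlap in either line, and the first treated SW948 library was the one nearest to its controls. The log2 fold change was 0.58 ± 0.061 (SE, n = 4 per group, edgeR adjusted p = 4.35e-05) in HT55 and 0.80 ± 0.093 (edgeR adjusted p = 1.85e-06) in SW948, where it was 0.46 and still called on plain totals.

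ADM (ENSG00000148926, chr11:10326620-10328944, plus strand) encodes adrenomedullin, a secreted peptide that widens blood vessels. In HT55 it stood at 8.19, 8.14, 9.29 and 7.74 CPM with DMSO and at 15.7, 20.1, 10.98 and 10.2 CPM with itraconazole. In SW948 it stood at 3.40, 3.72, 3.77 and 3.05 CPM with DMSO and at 9.95, 27.1, 31.0 and 15.3 CPM with itraconazole. No treated library overlapped its controls, but the treated libraries spread widely, with a coefficient of variation of 32.3% in HT55 and 47.4% in SW948 against 7.96% and 9.58% with DMSO. The log2 fold change was 0.77 ± 0.21 (SE, n = 4 per group, edgeR adjusted p = 0.0102) in HT55 and 2.56 ± 0.31 (edgeR adjusted p = 2.91e-06) in SW948.

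NDRG1 (ENSG00000104419, chr8:134249418-134314265, minus strand) encodes a stress-responsive protein linked to differentiation and growth arrest. In HT55 it stood at 33.6, 27.4, 30.1 and 32.4 CPM with DMSO and at 130, 169, 99.8 and 134 CPM with itraconazole. In SW948 it stood at 58.5, 54.5, 57.0 and 59.2 CPM with DMSO and at 250.2, 346, 354 and 305 CPM with itraconazole. In both lines every treated library lay far above every control. The rise was 4.32-fold in HT55 (log2 fold change 2.11 ± 0.15, SE, n = 4 per group, edgeR adjusted p = 4.45e-06) and 5.47-fold in SW948 (2.45 ± 0.099, edgeR adjusted p = 6.80e-11).

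P4HA1 (ENSG00000122884, chr10:74766975-74856732, minus strand) encodes a catalytic subunit of collagen prolyl 4-hydroxylase, which stabilises collagen helices. In HT55 it stood at 40.4, 40.8, 41.1 and 42.8 CPM with DMSO and at 74.2, 85.2, 42.5 and 57.9 CPM with itraconazole. The third treated library lay within the range of the HT55 controls, so the groups overlapped. In SW948 it stood at 35.1, 33.1, 30.1 and 29.6 CPM with DMSO and at 86.6, 104.6, 104.5 and 96.5 CPM with itraconazole, with no overlap. The log2 fold change was 0.65 ± 0.18 (SE, n = 4 per group, edgeR adjusted p = 0.00975) in HT55 and 1.61 ± 0.084 (edgeR adjusted p = 5.88e-10) in SW948.

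CA9 (ENSG00000107159, chr9:35673925-35681156, plus strand) encodes a cell surface carbonic anhydrase that acidifies the space around hypoxic cells. It had 1, 1, 0 and 1 counts in the HT55 DMSO libraries and 0, 1, 0 and 0 in the treated ones, too few to compare. In SW948 it had 7, 4, 7 and 3 counts with DMSO and 12, 8, 9 and 7 with itraconazole. As CPM all 4 treated SW948 libraries were above the DMSO libraries, at 1.04 ± 0.174 against 0.449 ± 0.175 (SD, n = 4; p = 0.0286 by the two-sided exact permutation test). CA9 was below the filter, and edgeR without the filter gave a log2 fold change of 1.20 ± 0.44 (SE, adjusted p = 0.0151). Its exons share 35.7% of their bases with ARHGEF39 on the opposite strand, so some of these few reads cannot be assigned with certainty.

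ANKRD37 (ENSG00000186352, chr4:186317175-186321782, plus strand) encodes a small ankyrin-repeat protein. It had 8, 5, 12 and 10 counts in the HT55 DMSO libraries and 3, 6, 5 and 2 in the treated ones, below the filter and overlapping. The means were 0.961 ± 0.343 and 0.443 ± 0.196 CPM (SD, n = 4; p = 0.0571 by the same exact permutation test). In SW948 it had 13, 9, 9 and 12 counts with DMSO and 15, 11, 9 and 13 with itraconazole, which as CPM were 0.909 ± 0.113 and 1.38 ± 0.169 with all treated libraries above the controls. The test did not pass in SW948 (log2 fold change 0.59 ± 0.25, SE, edgeR adjusted p = 0.0581), and with the size factors of DESeq2 it did (0.63, edgeR adjusted p = 0.0443). The exons of ANKRD37 share 40.3% of their bases with UFSP2 on the opposite strand.

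BNIP3 (ENSG00000176171, chr10:133781188-133795471, minus strand) encodes a mitochondrial membrane protein that drives mitophagy and cell death. It had 19, 16, 21 and 17 counts in the HT55 DMSO libraries and 10, 14, 18 and 11 in the treated ones, with overlapping levels of 1.99 ± 0.250 and 1.47 ± 0.254 CPM (SD, n = 4). The difference did not pass the test (log2 fold change -0.42 ± 0.22, SE, edgeR adjusted p = 0.155), and on plain totals it did (-0.58, edgeR adjusted p = 0.0487). In SW948 it had 0 counts in all 8 libraries, which allows up to 0.0637 CPM over the DMSO group and 0.0866 CPM over the itraconazole group at 3 counts per group.

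**Figure D2:**
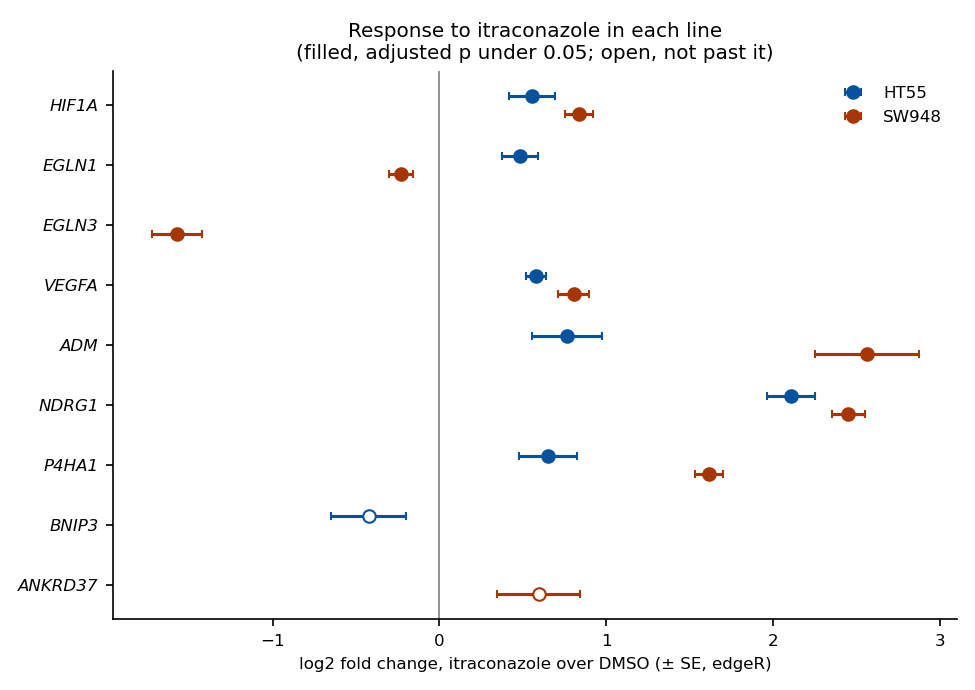
Log2 fold change of itraconazole over DMSO with its SE from edgeR for every member that passed the filter, HT55 in blue and SW948 in red, filled where the adjusted p was under 0.05. HIF1A, VEGFA, ADM, NDRG1 and P4HA1 are to the right of 0 in both lines, and EGLN1 is at 0.48 in HT55 and -0.23 in SW948.

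The second question was whether the responses differed between the lines, tested as the interaction of line and treatment over all 16 libraries. BNIP3 was left out because SW948 had no counts. Of the 8 members tested, 3 changed more in the upward direction in SW948 and 1 more in the downward direction, and 54.0% of 13249 genes were called, 24.7% upward and 29.3% downward. ADM rose more in SW948, by 1.80 ± 0.41 log2 units (SE, edgeR adjusted p = 0.00108). P4HA1 also rose more in SW948, by 0.96 ± 0.20 (edgeR adjusted p = 0.000501). EGLN1 differed in the other direction, by -0.71 ± 0.13 (edgeR adjusted p = 0.000165). ANKRD37 differed by 1.67 ± 0.46 (edgeR adjusted p = 0.00446), with at most 15 counts in any library. ANKRD37 and EGLN3 were below the filter in HT55 alone and entered this fit through SW948. The HT55 side of their differences therefore rests on counts too few for the test within that line.

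The responses of HIF1A, VEGFA, NDRG1 and EGLN3 did not differ past the threshold. The differences were 0.28 ± 0.17 for HIF1A (SE, edgeR adjusted p = 0.157), 0.23 ± 0.12 for VEGFA (0.117), 0.34 ± 0.18 for NDRG1 (0.119) and -1.12 ± 0.49 for EGLN3 (0.0843). Each of the latter 3 passed when 1 library was left out. VEGFA gave 0.29 (edgeR adjusted p = 0.0118) without SW948 itraconazole replicate 1. NDRG1 gave 0.44 (edgeR adjusted p = 0.026) without HT55 itraconazole replicate 2. EGLN3 gave -1.35 (edgeR adjusted p = 0.0411) without SW948 itraconazole replicate 3.

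The treated libraries were not ordered alike for all members. Among the 6 members that rose in HT55, replicate 3 was the lowest treated library for VEGFA, NDRG1, EGLN1 and P4HA1 and the highest for HIF1A, and replicate 2 was the highest for ADM, NDRG1, EGLN1 and P4HA1. Among the 5 that rose in SW948, replicate 1 was the lowest treated library for every one, and replicate 3 was the highest for HIF1A, VEGFA, ADM and NDRG1. HT55 replicate 3 and SW948 replicate 1 also had the treated TMM factors nearest to those of the controls, 0.966 and 0.975, beside 0.877 to 0.920 and 0.882 to 0.917 in the other treated libraries. The part of that difference in the levels was not tested. No call of a member in either line was lost or reversed when any 1 library was left out.

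**Figure D3:**
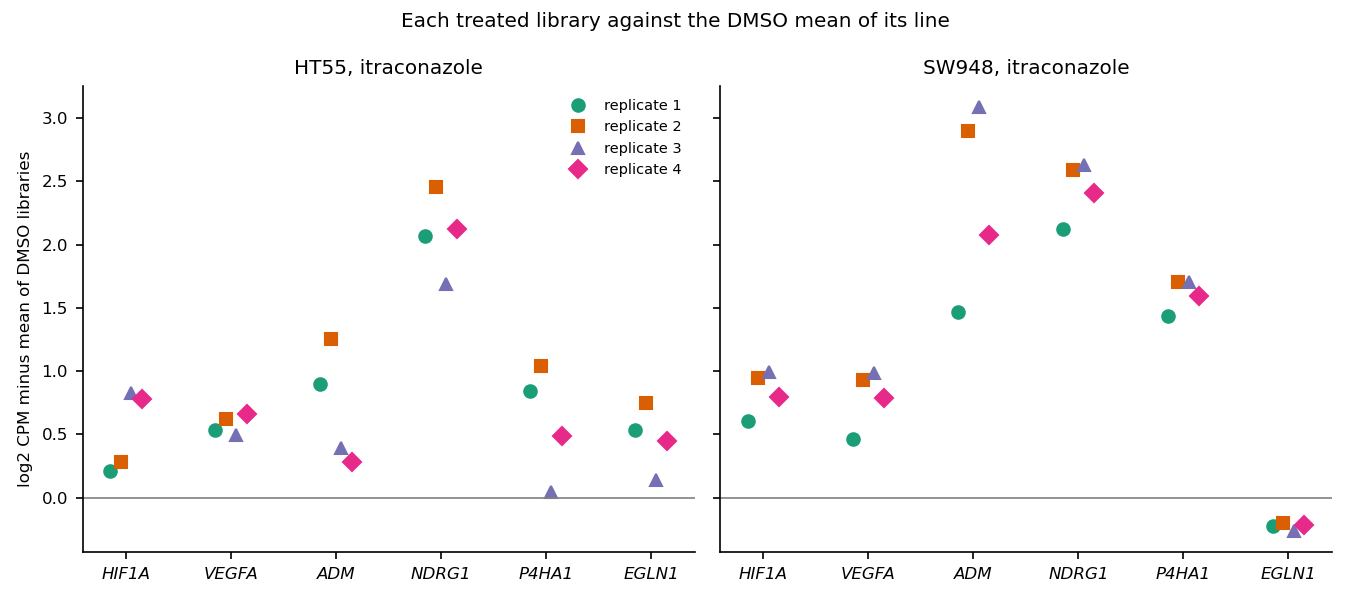
Difference of each treated library from the mean of the 4 DMSO libraries of its line, in log2 CPM, for the 6 members called in both lines, with 1 symbol per replicate. HT55 replicate 3 (triangles) is at the bottom for VEGFA, NDRG1, P4HA1 and EGLN1 and at the top for HIF1A, and SW948 replicate 1 (circles) is lowest for the 5 genes that rose.

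The third question was how the lines differed from each other with the same treatment, again in the fit of all 16 libraries. With DMSO, 9 members were tested, 4 were called higher in SW948 and 4 lower, all without overlap of the libraries, and 75.9% of 13249 genes were called, 38.7% higher and 37.2% lower. Libraries did not overlap for 39.6% of genes upward and 38.2% downward. BNIP3 in SW948 and EGLN3 in HT55 were below the filter when that line was taken alone. Both entered this fit through the line where they were high, so the filter in part built in their calls and their lack of overlap. EGLN3 was the most different, at 17.7 ± 1.06 CPM in SW948 against 0.466 ± 0.0811 in HT55 (SD, n = 4, log2 difference 5.22, SE 0.22, edgeR adjusted p = 3.46e-14). HIF1A was higher in SW948 by 0.90 ± 0.12 log2 units (SE, edgeR adjusted p = 1.00e-06) and NDRG1 by 0.89 ± 0.13 (edgeR adjusted p = 5.53e-06). ADM was lower in SW948 by 1.26 log2 units (log2 difference -1.26 ± 0.32, edgeR adjusted p = 0.00134). BNIP3 was at least 31.2-fold higher in HT55, with 73 counts against 0 and the bound taken at 3 counts over the SW948 group.

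Smaller differences with DMSO depended on the libraries or the scale. EGLN1 was higher in SW948 by 0.22 ± 0.094 log2 units (SE, edgeR adjusted p = 0.0384), a call lost without any 1 of the HT55 DMSO replicates or of SW948 DMSO replicates 2, 3 and 4, where values ran from 0.18 to 0.23. On plain totals that difference was 0.41 (edgeR adjusted p = 0.000274). P4HA1 was lower in SW948 (-0.37 ± 0.15, edgeR adjusted p = 0.0287), a call lost without HT55 DMSO replicate 4 (-0.35), SW948 DMSO replicate 3 (-0.34) or SW948 DMSO replicate 4 (-0.33) and on plain totals (-0.18). VEGFA was lower in SW948 (-0.24 ± 0.085, edgeR adjusted p = 0.0136), a call lost on plain totals (-0.06). ANKRD37 was at 0.961 ± 0.343 CPM in HT55 and 0.909 ± 0.113 in SW948 (SD, n = 4, edgeR adjusted p = 0.873). CA9, below the filter, had 3 counts in HT55 and 21 in SW948, a ratio of CPM of 5.47 (exact 95% counting interval 1.63 to 28.6).

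With itraconazole the order of the lines was another for several members. Of 9 tested, 5 were called higher in SW948 and 2 lower, and 80.9% of 13249 genes were called, 39.6% higher and 41.4% lower. These 7 members had libraries that did not overlap between the lines, beside 34.2% of genes upward and 35.4% downward. BNIP3, EGLN3 and ANKRD37 are among them, each below the filter when its lower line was taken alone. The filter thus in part built in their calls and their lack of overlap. P4HA1 was now higher in SW948, at 98.1 ± 8.56 against 64.9 ± 18.7 CPM (SD, n = 4, log2 difference 0.60, SE 0.14, edgeR adjusted p = 0.000597). EGLN1 was now lower, at 65.1 ± 1.20 against 91.7 ± 15.7 CPM (SD, n = 4, log2 difference -0.49, SE 0.094, edgeR adjusted p = 8.21e-05). VEGFA stood at 298 ± 45.5 CPM in SW948 and 302 ± 16.2 CPM in HT55, a log2 difference of -0.02 ± 0.084 (SE, edgeR adjusted p = 0.85). ADM was at 20.8 ± 9.87 against 14.2 ± 4.598 CPM, which did not pass (0.54 ± 0.26, SE, edgeR adjusted p = 0.0643). That test did pass without HT55 itraconazole replicate 2 (0.73), SW948 itraconazole replicate 1 (0.77) or SW948 itraconazole replicate 4 (0.65), and ADM gave 0.26 without SW948 itraconazole replicate 3.

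HIF1A, NDRG1, EGLN3 and ANKRD37 were higher in SW948 with itraconazole. The log2 differences were 1.19 ± 0.12 for HIF1A (SE, edgeR adjusted p = 1.35e-08), 1.24 ± 0.12 for NDRG1 (1.57e-08), 4.10 ± 0.27 for EGLN3 (2.36e-11) and 1.60 ± 0.34 for ANKRD37 (0.000237). BNIP3 was at least 17.1-fold higher in HT55, with 53 counts against 0. CA9 had 1 count in HT55 and 36 in SW948, a ratio of 37.2 with an exact 95% counting interval of 6.26 to 1508.

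Levels were compared between members per kilobase of exon. In HT55 with DMSO, VEGFA was highest at 13.996 ± 0.466 CPM per kb (SD, n = 4), overlapping P4HA1 at 13.3 ± 0.340. EGLN1 (12.2), HIF1A (10.3), ADM (3.59) and NDRG1 (2.57 CPM per kb) followed, each without overlap with its neighbour. BNIP3 and ANKRD37 overlapped at 0.491 and 0.426 CPM per kb, as did EGLN3 and CA9 at 0.0632 and 0.0515. In SW948 with DMSO, HIF1A was highest at 19.3 ± 1.25, then EGLN1 (14.2), VEGFA (11.8), P4HA1 (10.3), NDRG1 (4.77), EGLN3 (2.41) and ADM (1.498 CPM per kb), all without overlap. ANKRD37 and CA9 overlapped at 0.403 and 0.281 CPM per kb, and BNIP3 was at 0.

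With itraconazole the upper members ran together. In HT55 the neighbours P4HA1, VEGFA, EGLN1, HIF1A, NDRG1 and ADM each overlapped the next, from 21.0 down to 6.12 CPM per kb. In SW948, HIF1A (34.6), P4HA1 (31.7), NDRG1 (26.1) and VEGFA (20.6 CPM per kb) overlapped in turn, while VEGFA lay above EGLN1 (12.1) and ADM (8.96) above EGLN3 (0.814). NDRG1 is the member whose place rests most on the length used, 12002 bases of exon union against 3983 bases of its longest transcript, and per kilobase of that transcript it was the highest member in both treated groups, at 33.5 CPM per kb in HT55 and 78.8 in SW948.

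**Figure D4:**
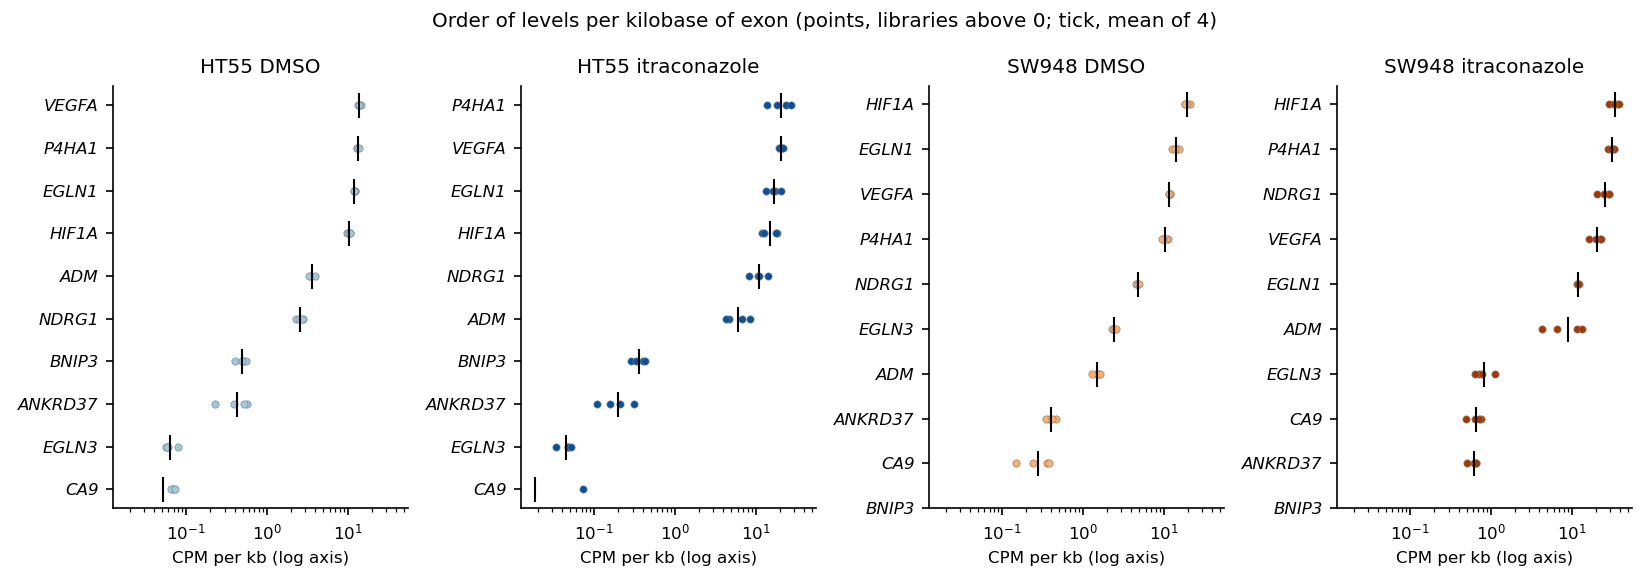
Members ordered by mean level in each group, in CPM per kilobase of exon on a log axis, with libraries above 0 as points and the mean of 4 libraries as a tick. The upper 6 members with itraconazole in HT55 overlap their neighbours, and BNIP3 has no point in SW948 because all 8 libraries were at 0.

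The rest of the pathway was described with lists of related genes, beside which 26.9% of all genes tested in HT55 were called higher and 27.2% lower, and 39.3% and 40.7% in SW948. Of the 16 genes listed for oxygen sensing and HIF turnover, 15 were matched to a row of counts and 13 were tested in each line. EGLN2, another HIF prolyl hydroxylase, was not matched and so was not measured here. In HT55, 6 were called higher and 1 lower (median log2 fold change 0.17), and in SW948 5 higher and 4 lower (0.07). On plain totals these were 6 and 2 in HT55 and 5 and 7 in SW948. EPAS1, the other main alpha subunit, rose in HT55, where DMSO libraries averaged 109 ± 6.46 CPM and treated ones 312 ± 42.0 (SD, n = 4; log2 fold change 1.52, SE 0.096, edgeR adjusted p = 3.32e-06) and by 0.88 ± 0.071 in SW948 (edgeR adjusted p = 4.58e-08). SIAH2, a ubiquitin ligase that targets EGLN proteins, had the largest change of the list in SW948, a rise of 1.41 ± 0.13 log2 units (SE, edgeR adjusted p = 2.28e-07), and rose by 0.52 ± 0.10 in HT55 (edgeR adjusted p = 0.00189). VHL, the subunit that recognises hydroxylated HIF, fell in both, from 75.2 ± 4.02 CPM with DMSO to 41.5 ± 7.20 with itraconazole in HT55 and from 81.0 ± 3.28 to 34.0 ± 7.26 in SW948 (n = 4 per group, SD; edgeR adjusted p = 0.000162 and 1.87e-07). HIF1AN, an asparagine hydroxylase that blocks HIF activity, fell in SW948 from 40.03 ± 2.19 to 16.1 ± 1.81 CPM (n = 4 per group, SD; log2 fold change -1.31, edgeR adjusted p = 1.35e-08) and was at 45.2 and 42.4 CPM in HT55 (edgeR adjusted p = 0.3). Also called higher were ELOB in both lines (log2 fold change 0.48 in HT55 and 0.97 in SW948) and CREBBP in HT55 (0.52). ARNT and ELOC were called higher in SW948 (0.84 and 0.78). CITED2 and EP300 were called in opposite directions, higher in HT55 (0.82 and 0.42) and lower in SW948 (-0.92 and -0.33).

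The other HIF targets outside glycolysis held 31 genes. Of 26 tested in HT55, 17 were called higher and 5 lower, and of 25 in SW948, 14 higher and 4 lower, with medians of 0.57 and 0.40. On plain totals the counts were 15 and 6 in HT55 and 10 and 10 in SW948. Among 24 tested in both lines, 11 were called higher in both, 1, WSB1, lower in both and 4 in opposite directions, namely BNIP3L, CA12, INSIG2 and PLOD2. The matching shares over all genes tested in both lines were not computed, so these counts have no baseline. MXI1, a repressor of MYC activity, rose by 2.05 ± 0.29 log2 units in HT55 (SE, edgeR adjusted p = 0.000259) and 1.63 ± 0.083 in SW948 (edgeR adjusted p = 4.88e-10). BHLHE40, a hypoxia-induced transcriptional repressor, rose by 1.498 ± 0.16 in HT55 (SE, edgeR adjusted p = 4.52e-05) and 3.37 ± 0.25 in SW948 (edgeR adjusted p = 1.70e-08). ANGPTL4, a secreted inhibitor of lipoprotein lipase, had the largest change of the list in HT55, from 0.376 ± 0.197 to 5.08 ± 2.89 CPM (n = 4 per group, SD; log2 fold change 3.70, edgeR adjusted p = 0.000287), and was below the filter in SW948. MAFF, a small MAF transcription factor, rose by 1.37 ± 0.23 in HT55 (SE, edgeR adjusted p = 0.000635) and 2.67 ± 0.18 in SW948 (edgeR adjusted p = 6.08e-09). BHLHE41, a relative of BHLHE40, rose in SW948 by 1.88 ± 0.093 (SE, edgeR adjusted p = 3.76e-10).

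Glycolytic HIF targets were all measured, 21 in each line. In HT55, 11 were called higher and 1 lower, and in SW948 12 higher and 4 lower, which became 9 and 5, and 9 and 9, on plain totals. ALDOC, an aldolase, rose by 3.51 ± 0.18 log2 units in HT55 (SE, edgeR adjusted p = 1.55e-06) and 4.97 ± 0.12 in SW948 (edgeR adjusted p = 3.91e-12). PDK1, a kinase that holds pyruvate back from the mitochondria, fell by 0.89 log2 units in HT55, from 21.3 ± 3.43 to 11.5 ± 0.756 CPM (n = 4 per group, SD; edgeR adjusted p = 0.000286). In SW948 PDK1 fell from 54.9 ± 3.57 to 21.5 ± 1.56 CPM (log2 fold change -1.36, edgeR adjusted p = 2.69e-09). The other genes called lower in SW948 were PFKL (-0.82), SLC2A1 (-0.76) and ENO1 (-0.32).

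Collagen prolyl and lysyl hydroxylases, the enzyme family of P4HA1, were called higher for 5 of 5 tested in HT55 and for 4 of 5 in SW948, with 1 lower. P4HA2 rose by 0.82 ± 0.074 and 0.86 ± 0.066 log2 units and PLOD1 by 0.99 ± 0.083 and 0.94 ± 0.064 in HT55 and SW948 (SE, edgeR adjusted p at most 1.74e-05). PLOD2 rose in HT55 by 0.98 ± 0.18 (SE, edgeR adjusted p = 0.00104) and fell in SW948 (-0.52 ± 0.12, edgeR adjusted p = 0.00138). P4HB in SW948 was the exception to the scale, with 0.28 by TMM and -0.06 on plain totals.

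Among ligands and receptors of VEGF and adrenomedullin, 5 of 14 were tested in HT55 (2 higher, 2 lower) and 6 in SW948 (3 higher, 2 lower). PGF, a placental relative of VEGFA, rose by 1.77 ± 0.17 log2 units in HT55 (SE, edgeR adjusted p = 2.78e-05) and 2.82 ± 0.29 in SW948 (edgeR adjusted p = 5.20e-07). ADM2, a relative of ADM, fell in both lines, from 32.0 to 17.7 CPM in HT55 and from 44.4 to 25.1 CPM in SW948 (edgeR adjusted p = 0.000175 and 1.53e-07). RAMP1, a coreceptor of the calcitonin receptor family, fell in SW948 from 7.94 ± 0.904 to 1.65 ± 0.662 CPM (n = 4 per group, SD; edgeR adjusted p = 2.71e-07). The receptor genes KDR, FLT1, FLT4 and CALCRL were below the filter in both lines.

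Carbonic anhydrases, the family of CA9, were mostly too low to test, with 4 of 14 tested in HT55 (1 higher, 0 lower, and 2 called without itraconazole replicate 2) and 6 in SW948 (3 higher, 1 lower). CA12, like CA9 a membrane enzyme induced by HIF, fell in SW948 from 83.1 ± 3.94 to 49.2 ± 12.9 CPM (n = 4 per group, SD; edgeR adjusted p = 0.000109). CA3, a muscle-type cytosolic enzyme, rose in SW948 from 0.544 ± 0.226 to 5.77 ± 1.61 CPM (n = 4 per group, SD; log2 fold change 3.40, edgeR adjusted p = 1.16e-07). CA2, the widespread cytosolic enzyme, rose there by 0.85 ± 0.16 log2 units (SE, edgeR adjusted p = 0.000211) and CA11 by 0.58 ± 0.20 (edgeR adjusted p = 0.0147), the latter not called on plain totals. The gene called higher in HT55 was CA12, at 46.1 and 72.0 CPM (edgeR adjusted p = 0.0109), with overlapping libraries and named after its values were seen. Of the NDRG and BNIP3 relatives, 5 of 6 were tested in each line, with 2 higher and 1 lower in HT55 and 3 and 2 in SW948. On plain totals these were 0 and 1, and 2 and 3, and the 3 calls of HT55 became 0 without DMSO replicate 1 and 1 without DMSO replicate 2 or itraconazole replicate 4. BNIP3L, the closest relative of BNIP3, fell slightly in HT55, from 38.2 ± 1.55 to 31.4 ± 3.41 CPM (n = 4 per group, SD; edgeR adjusted p = 0.022). In SW948 it was called higher, at 131 and 149.5 CPM (log2 fold change 0.19, edgeR adjusted p = 0.0222), and called lower on plain totals (-0.16, edgeR adjusted p = 0.0345). NDRG2 fell in SW948 from 22.4 ± 1.997 to 11.1 ± 2.17 CPM (n = 4 per group, SD; edgeR adjusted p = 6.49e-06), where NDRG1 rose.

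**Figure D5:**
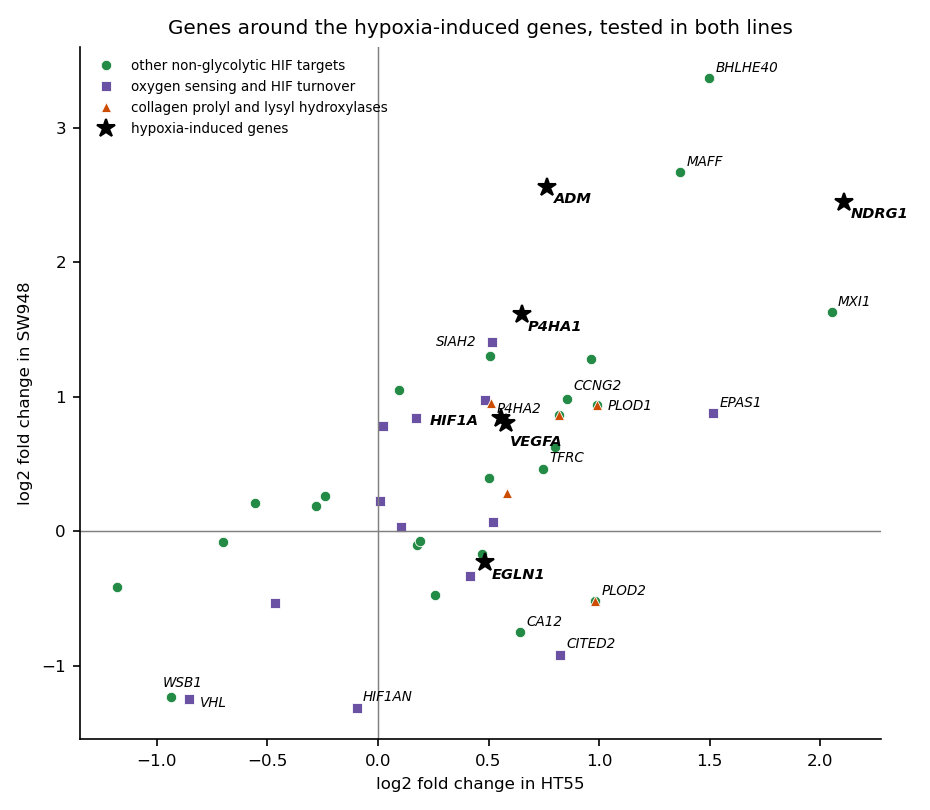
Log2 fold change of itraconazole over DMSO in SW948 against that in HT55 for genes of 3 related lists tested in both lines, with the hypoxia-induced genes as stars. EPAS1 and MXI1 lie to the upper right with NDRG1, VHL and WSB1 to the lower left, and PLOD2, CA12, CITED2 and EGLN1 to the right of 0 in HT55 and below 0 in SW948.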

How the data were processed

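RNA from 16 cultures was made into TruSeq libraries and sequenced by the authors as single-end reads of 50 bp. Per the labels, reads were aligned to hg19, and the submitters' processing notes name TopHat, HTSeq and DESeq; the versions, the annotation release and the strandedness are not given in the sources used here. The authors deposited raw, unnormalised read counts per Ensembl gene, 1 file per library, ending in 5 totals outside genes, which were left out: reads in no feature (3.79 to 4.94%), ambiguous reads (1.23 to 1.48%) and reads with more than 1 alignment (22.0 to 27.9%) among them. Shared reads of near-identical genes are therefore missing.

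Symbols (47098 of 54127 identifiers), coordinates and exon lengths came from GENCODE mapped to GRCh37, the build of the files. Tests used edgeR 4.0.16 (glmQLFit and glmQLFTest; R 4.3.3) on the 8 libraries of a line after filterByExpr, with TMM factors from all 16 libraries, and for the interaction and the lines on all 16. Adjusted p-values are Benjamini-Hochberg over all genes tested, and the SE is the log2 fold change divided by the root of F. Members below the filter were compared by two-sided exact permutation over the 70 assignments of 4 against 4 libraries (4 tests, unadjusted). The edgeR script was tested on simulated data.

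The members and lists were chosen with earlier results of these data known. From each list the text could name, per line, up to 4 called genes, those with the largest absolute change among genes with all 4 treated libraries beyond the controls; it names some of these, gives their values in the other line where useful, and names further genes where a count of 5 or fewer or a change of direction calls for them, chosen after their values were seen. Alternatives were DESeq2 size factors, plain totals, TMM within the line, the Wald test of DESeq2 1.42.0, no filter, an adjusted p under 0.01, a floor of 10 counts per library, 1 fit of all libraries, the longest transcript for lengths, a replicate block and leaving out each library. Replicate pairs differed by more than sampling noise (chi-square per degree of freedom 1.46 to 43.4 over 24 pairs), so all 16 were kept as separate samples. Counts carry no molecular identifiers, so intervals and limits cover counting error only.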

Additional observations from a re-analysis of the deposited data

Results flagged for a closer look

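The response to itraconazole differed between the lines, by the edgeR test of the interaction, for 4 of the 8 members tested (50.0%). The share over all 13249 genes tested was 54.0%, so the members were near it. The SW948 change minus the HT55 change was 1.80 log2 units for ADM, 1.67 for ANKRD37, 0.96 for P4HA1 and -0.71 for EGLN1. ADM and P4HA1 rose in both lines and more in SW948. EGLN1 rose in HT55 and fell in SW948. ANKRD37 was below the filter in HT55, so the main test did not cover it there, and it did not pass in SW948. It had 35 and 16 counts in HT55 and 43 and 48 in SW948 (DMSO and itraconazole).

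EGLN3 in HT55 DMSO replicate 4 stood apart from the other 3 libraries, with a gap of 0.858 of the range of the group. The gap is that between 5 counts and 4. It was the only 1 of 36 groups of 4 libraries in which a library stood apart, and chance gives about 1 in 20 groups.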

How the results depend on the processing

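The members called in HT55 numbered 6, with 5 at an adjusted p under 0.01, 7 on plain totals, and 6 to 6 in the 8 fits without 1 library. In SW948 they numbered 7, with 8 by the size factors of DESeq2 and 7 to 7 without 1 library. No called member changed direction under any alternative run. The interaction gave 4 to 5 members without 1 library, the lines with DMSO 6 to 8 and with itraconazole 7 to 8, and the lists 44 to 51 genes in HT55 and 55 to 62 in SW948. At the stricter adjusted p the lines with DMSO differed for 5 members in place of 8, and where every library had to hold at least 10 counts the lines with itraconazole differed for 4 in place of 7, since fewer genes were tested. ADM in HT55 missed an adjusted p under 0.01 (0.0102). The EGLN1 difference between lines with DMSO missed with the Wald test of DESeq2 (0.0542). The interaction of NDRG1 passed with no filter (0.0289) and that of EGLN3 on plain totals (-1.32, 0.0432), and ADM between treated lines passed with no filter (0.000592); the cause was not tested. BNIP3 in the interaction, and members below the stricter filter, gave no value under it.

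Same-numbered libraries of a line correlated weakly in their deviations (-0.02 to 0.12 in HT55, -0.004 to 0.10 in SW948), and nothing in the labels pairs them. A replicate block changed no call of a member, with 6 members in HT55, 7 in SW948, 4 in the interaction, 8 and 7 between the lines, and NDRG1 at 2.09 and 2.44. Within the lists some calls did change, as for the other HIF targets in HT55, where 16 in place of 17 were called higher.

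A few counts per library limit CA9, ANKRD37, BNIP3 and, in HT55, EGLN3.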

Other observations

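Over the 4 group means of log2 CPM, each gene centred on its own mean, the gene nearest to each member among 12909 was STAP2 for HIF1A (root mean square distance 0.0102 log2 units), GUK1 for VEGFA (0.0188), SMAD1 for EGLN1 (0.0277), PRRC1 for P4HA1 (0.0439), EPHX1 for NDRG1 (0.0459) and RNF39 for ADM (0.0557). The distance rests on 4 points per gene and says nothing of shared function or control.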
